A study of Homo sapiens with 6 samples.

Results

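The zinc finger genes of human chromosome 19 were described by their SMARCA4 peaks in K562 cells. Members were chosen by symbol and position: every protein-coding gene on chromosome 19 of the GENCODE annotation of hg19 whose symbol starts with ZNF. This gave 249 of the 20163 protein-coding genes. Their peaks were selected on the measured positions of SMARCA4 regions, by overlap with the window from 1 kb before to 1 kb after the 5' end of the gene (a 5' peak), with a last exon (a 3' exon peak) or with the rest of the gene (a body peak). By this rule 149 of the 28265 peaks of the list lay at a member. Because the peak positions define these classes, the shares below describe 1 peak list and carry no test. The other 1231 protein-coding genes of chromosome 19 and the 267 ZNF genes of other chromosomes are given beside them.

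SMARCA4 (BRG1) is an ATPase subunit of the SWI/SNF chromatin remodelling complexes, which slide or evict nucleosomes, and ChIP-seq recovers the DNA that is crosslinked to it. K562, an established chronic myelogenous leukaemia line, was fixed in 2 steps, 30 min in 2 mM disuccinimidyl glutarate followed by 10 min in 1% formaldehyde. The experiment had 3 libraries made with a SMARCA4 antibody and 3 input libraries of chromatin without the antibody step, and the peaks were those found in at least 2 of the 3 SMARCA4 libraries. The study speaks of biological replicates, whereas the design text deposited with the data speaks of technical ones and a single input, and the list holds positions with no height or value per replicate.

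Most of these genes encode proteins with tandem C2H2 zinc fingers, each finger able to contact a few bases of DNA, and many carry a KRAB domain at the amino terminus. The KRAB domain binds TRIM28 (KAP1), a scaffold that brings the histone methyltransferase SETDB1 and the HP1 proteins, and the H3K9me3 so laid down silences retrotransposons and other targets. The genes arose by repeated tandem duplication and sit in clusters, with the whole finger array usually encoded by the last exon. The 3' exons are themselves marked by H3K9me3 in many cell types, a mark that ZNF274 helps to place.

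Of the 249 genes, 75 had a SMARCA4 peak within 1 kb of the 5' end, which is 30.1% (95% Wilson interval 24.8 to 36.1), against 42.3% of all protein-coding genes. The share was 51.0% (48.2 to 53.8) for the other coding genes of chromosome 19, of which 628 had a 5' peak, and 59.2% (53.2 to 64.9) for the ZNF genes of other chromosomes. The difference from the other chromosome 19 genes was -20.9 percentage points (95% Newcombe interval -26.9 to -14.3). Against the ZNF genes elsewhere it was -29.1 points (-36.9 to -20.6). All intervals here cover counting error only, and neighbouring genes of a cluster are not independent. Counting peaks anywhere in the gene, 100 of the 249 genes (40.2%) had at least 1 peak and 149 had none, while 64.4% of the other chromosome 19 genes and 11098 of the 20163 coding genes in all (55%) had 1.

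The clusters differed among themselves. Below 15 Mb, 24 of 48 ZNF genes (50%, 36.4 to 63.6) had a 5' peak. The pericentromeric cluster from 15 to 25 Mb had 6 of 37 (16.2%, 7.65 to 31.1). Between 32 and 40 Mb there were 7 of 32 (21.9%, 11 to 38.8), between 40 and 50 Mb 8 of 31 (25.8%, 13.7 to 43.2), and above 50 Mb, where the largest number of members lies, 30 of 100 (30.0%, 21.9 to 39.6). The remaining member, ZNF536, lies between the clusters and had no peak.

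Set beside the other coding genes of the same interval, the ZNF genes had the lower share in each cluster, but by unequal amounts. The difference was -37.2 points (-48.9 to -20.2) at 15 to 25 Mb, where 53.4% of the other genes had a 5' peak. It was -28.8 points (-42.2 to -10.1) at 32 to 40 Mb and -24.2 points (-37.6 to -5.84) at 40 to 50 Mb. Below 15 Mb it was -9.85 points (-24.2 to 4.58) and above 50 Mb -4.65 points (-15.0 to 6.59). Above 50 Mb the other coding genes were themselves low, at 34.6%. Members made up 30.5% of the coding genes there and their peaks 20.6% of the 291 peaks of the interval, whereas from 40 to 50 Mb members made up 9.66% of the coding genes and held 16 of 446 peaks (3.59%).

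**Figure D1:**
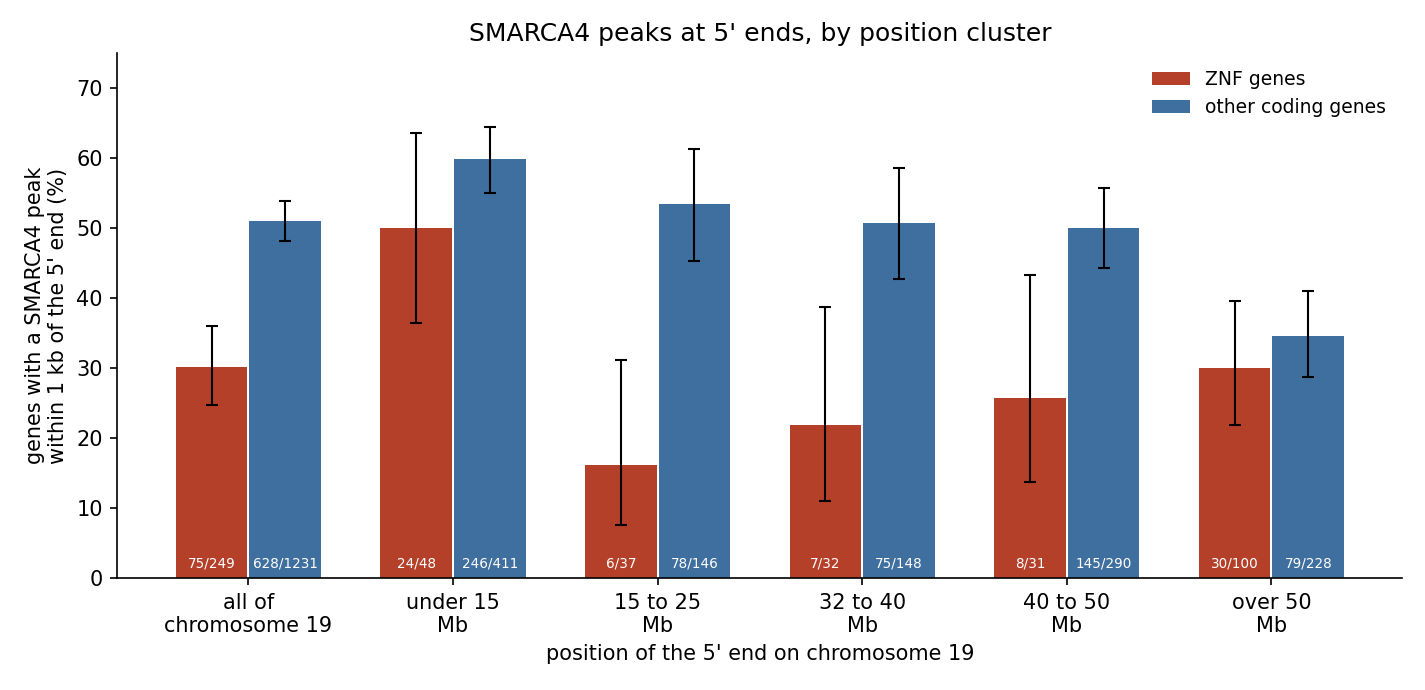
Share of genes with a SMARCA4 peak within 1 kb of the 5' end, in percent, for ZNF genes (red) and other coding genes (blue) of chromosome 19, in all and by position cluster; error bars are 95% Wilson intervals and the counts stand in the bars. The bars of the ZNF genes run from 16.2% at 15 to 25 Mb to 50% below 15 Mb.

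The 5' peaks of the ZNF genes were fewer and, in the peak list as it stands, also narrower. The 94 distinct peaks had a median width of 335 bp, with quartiles of 215 and 548 bp, against 424 bp for the 730 peaks at the other chromosome 19 genes and 438 bp for the 9335 peaks at all coding genes. Of the 75 genes, 58 had 1 such peak, 14 had 2 and 3 had 3 (ZNF93, ZNF865 and ZNF888). In 50 genes a peak covered the annotated 5' end itself, and 18 genes shared a 5' peak with another coding gene of the chromosome. The midpoints of the widest peak of each gene lay around the 5' end, with a median of -5 bp and quartiles of -112 and 179 bp. For genes at the edge of the rule, the nearest peak lay 608 bp from the 5' end of ZNF431, 696 bp from ZNF44 and 698 bp from ZNF850, all inside the window. Just outside lay ZNF331 at 1095 bp, ZNF792 at 1430 bp and ZNF556 at 1555 bp. Most genes without a 5' peak were far from any: among these 174 genes the median distance to the nearest peak was 53460 bp, against 14508 bp for the 603 other chromosome 19 genes without one, and 90 were over 50 kb away. The largest distance was 903082 bp, at ZNF99.

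The widest 5' peaks of each cluster illustrate the range. Below 15 Mb they were a 1006 bp peak at ZNF414 (chr19:8578645-8579650), a 905 bp peak at ZNF627 (chr19:11670903-11671807), whose midpoint lay 1166 bp downstream of the 5' end, and a 612 bp peak at ZNF564. At 15 to 25 Mb ZNF93, the repressor of L1 retrotransposons, had peaks of 798, 425 and 330 bp (the widest at chr19:20012020-20012817). It was followed by ZNF253 with 536 bp and ZNF714 with 284 bp. At 32 to 40 Mb the widest peak, 779 bp, was at ZNF146 (chr19:36705416-36706194), a gene whose protein consists almost wholly of fingers. ZNF181 followed with 698 bp and ZNF260 with 411 bp. The widest of all, 1127 bp, was at ZNF428 in the 40 to 50 Mb cluster (chr19:44123137-44124263), which also held ZNF576 with 848 bp and ZNF180 with 655 bp. Above 50 Mb ZNF808 had 866 bp, ZNF460 858 bp and ZNF274 844 bp (chr19:58694450-58695293).

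**Figure D2:**
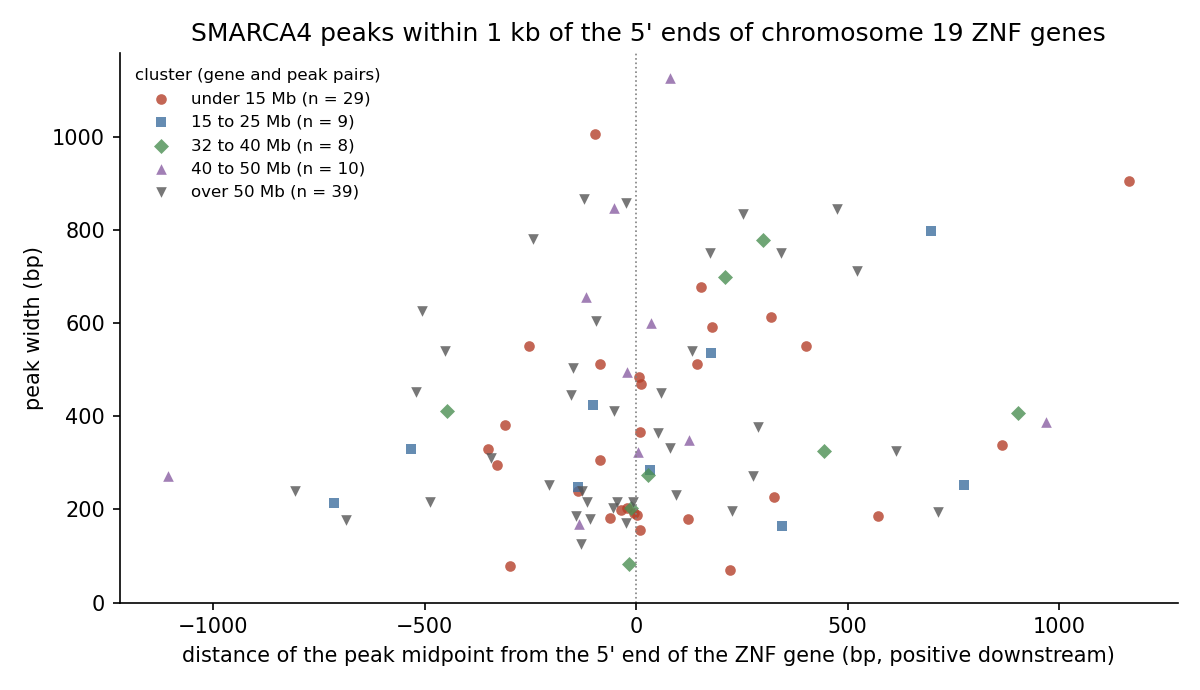
Width in bp of the 95 pairs of a ZNF gene and a 5' peak against the distance in bp of the peak midpoint from the 5' end, by cluster. The pairs gather around the 5' end and their widths run from 71 to 1127 bp.

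Along the chromosome most genes with a 5' peak stood alone or in pairs: 29 of the 75 had no ZNF neighbour with a 5' peak and 24 stood in pairs. Runs were counted within each cluster and end at its borders. The longest runs of neighbouring ZNF genes without a 5' peak then had 17 genes each. The run from ZNF345 to ZNF573 at 37.3 to 38.3 Mb, 967 kb between its outer 5' ends, comprised ZNF345, ZNF790, ZNF829, ZNF568, ZNF420, ZNF585A, ZNF383, ZNF585B, ZNF875, ZNF527, ZNF570, ZNF569, ZNF793, ZNF540, ZNF571, ZNF607 and ZNF573. That span held 2 peaks, and 0 of the 4 other coding genes in it had a 5' peak. ZNF573 is the last member of its cluster, and the next members, ZNF546 and ZNF780B of the 40 to 50 Mb cluster, also had no 5' peak. Without the border the run would thus be longer. The run above 50 Mb, 404 kb long, comprised ZNF17, ZNF749, ZNF772, ZNF419, ZNF773, ZNF549, ZNF550, ZNF416, ZNF530, ZNF134, ZNF211, ZNF551, ZNF154, ZNF671, ZNF776, ZNF586 and ZNF552, with 1 peak in the span and 0 of 6 other coding genes with a 5' peak. Another long block, of 13 genes from ZNF43 to ZNF91 in the 15 to 25 Mb cluster, spanned 1543 kb between 5' ends without a single peak. It was singled out after its values were seen. The 330 bp body peak of ZNF43 lies outside this span. All runs used the outermost 5' end of each gene. When any coding start counted, ZNF43 and ZNF573, each at the end of its run, had a 5' peak. The longest run with a 5' peak had 5 genes and lies near the end of the long arm: ZNF274, ZNF544, ZNF8, ZNF497 and ZNF837. Its 198 kb held 8 peaks, and 3 of the 4 other coding genes in it had a 5' peak.

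**Figure D3:**
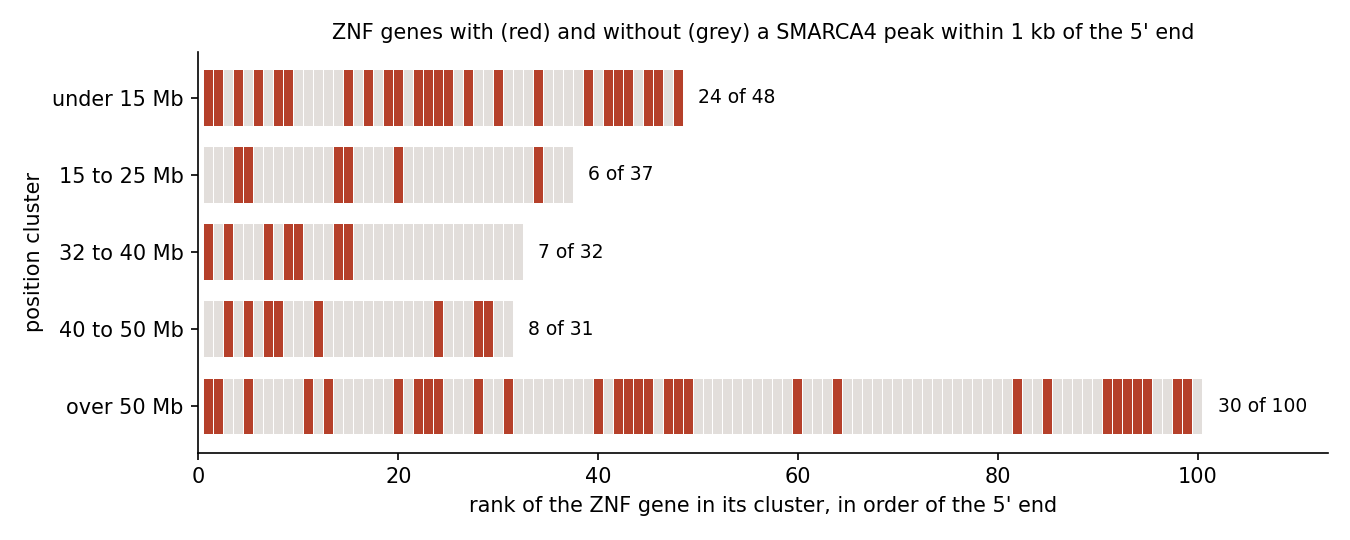
ZNF genes of each cluster in the order of their 5' ends, with a 5' peak in red and without in grey; the horizontal axis is the rank in the cluster, so distances are not drawn. Blocks of 17 grey genes are seen at 32 to 40 Mb and above 50 Mb.

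The 15 to 25 Mb cluster holds genes that share stretches of upstream sequence, some with a SMARCA4 peak and some without. Identity over the whole of these sequences was not measured. The 150 bases upstream of the 5' end (hg19, written 5' to 3' on the strand of the gene, CCAAT boxes on either strand in capitals) are shown for the 2 genes of the cluster ranked next to ZNF93 by peak width, ZNF253 (chr19:19976541-19976690, plus strand) and ZNF714 (chr19:21264815-21264964, plus strand), and for ZNF675 (chr19:23870023-23870172, minus strand), whose 249 bp peak lies at chr19:23870035-23870283. The next 2 had no 5' peak: ZNF91, the repressor of SVA elements (chr19:23578274-23578423, minus strand), and ZNF208 (chr19:22193752-22193901, minus strand).
ZNF675, with a peak: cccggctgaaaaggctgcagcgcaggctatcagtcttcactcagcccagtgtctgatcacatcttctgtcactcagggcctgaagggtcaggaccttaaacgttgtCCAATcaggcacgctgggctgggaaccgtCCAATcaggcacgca
ZNF714, with a peak: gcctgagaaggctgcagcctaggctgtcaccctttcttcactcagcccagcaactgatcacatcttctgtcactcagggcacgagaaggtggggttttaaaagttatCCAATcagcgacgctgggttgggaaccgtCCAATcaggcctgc
ZNF253, with a peak: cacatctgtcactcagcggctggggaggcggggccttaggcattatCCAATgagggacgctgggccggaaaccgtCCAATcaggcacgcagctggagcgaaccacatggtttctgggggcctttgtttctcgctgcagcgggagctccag
ZNF91, no 5' peak: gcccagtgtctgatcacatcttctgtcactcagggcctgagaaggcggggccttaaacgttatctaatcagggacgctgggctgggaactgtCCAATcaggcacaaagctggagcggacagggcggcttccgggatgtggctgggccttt
ZNF208, no 5' peak: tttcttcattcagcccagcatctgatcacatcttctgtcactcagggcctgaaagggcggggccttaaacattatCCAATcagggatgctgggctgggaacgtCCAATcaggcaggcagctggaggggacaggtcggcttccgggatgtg
The stretches of ZNF675, ZNF714, ZNF91 and ZNF208 share an unbroken run of 27 bases, ctgatcacatcttctgtcactcagggc. In the window from 500 bp upstream to 100 bp downstream of the 5' end, this run occurred in 6 of the 37 genes of the cluster and in 6 of the 20163 coding genes in all, so outside the cluster it was found at no coding gene. It was present in 2 of the 6 genes of the cluster with a 5' peak and in 4 of the 31 without. At least 2 CCAAT boxes stood in the same window of 30 of the 37 genes (81.1%, 65.8 to 90.5), against 41.7% of the ZNF genes below 15 Mb, 25% of those above 50 Mb and 22.1% of all coding genes. Within the cluster it was found in 5 of the 6 genes with a 5' peak (43.6 to 97.0%) and in 25 of the 31 without. Below 15 Mb it was found in 7 of 24 genes with a 5' peak and 13 of 24 without. The printed sequences and these counts were chosen after the peaks had been seen.

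CpG content, which the rule did not use, was compared next. A 5' end was called CpG-rich when the 500 bp on either side had a CpG observed over expected of at least 0.6 and a GC content of at least 55%, thresholds set after the peaks had been seen. By this measure 138 of the 249 ZNF genes (55.4%) were CpG-rich, beside 616 of the 1231 other chromosome 19 genes (50%) and 51.9% of all coding genes. Among the CpG-rich genes 57 of 138 ZNF genes (41.3%, 33.4 to 49.6) had a 5' peak, whereas 481 of 616 other chromosome 19 genes (78.1%, 74.6 to 81.2) and 120 of 177 ZNF genes elsewhere (67.8%, 60.6 to 74.2) had 1. Of all CpG-rich coding genes 62.0% had a 5' peak, so the other chromosome 19 genes were the highest of these groups. The difference from the other chromosome 19 genes was -36.8 points (-45.2 to -27.8), larger than without the restriction. For CpG-poor 5' ends the shares were 16.2% (10.5 to 24.2) and 23.9% (20.7 to 27.4), with 21.0% for all coding genes and 42.2% (32.5 to 52.5) for the ZNF genes of other chromosomes. The clusters again differed. Above 50 Mb 24 of 70 CpG-rich ZNF genes (34.3%) had a 5' peak against 71.2% of their CpG-rich neighbours, a difference of -37.0 points (-50.3 to -21.1), and at 32 to 40 Mb 7 of 24 (29.2%) against 78.5%. Below 15 Mb the shares were 65.6% and 81.1%, a difference of -15.4 points (-33.3 to -0.475). The remaining clusters had few CpG-rich ZNF genes. At 40 to 50 Mb there were 7 of 31 (22.6%), of which 5 had a 5' peak against 80.7% of their neighbours, a difference of -9.24 points (-45.3 to 12.6) that was smaller than without the restriction. At 15 to 25 Mb there were 5 of 37 (13.5%), 0 of which had a 5' peak (upper Wilson limit 43.4%). Of their CpG-rich neighbours 65 of 89 (73.0%) had 1, a difference of -73.0 points (-81.2 to -28.4).

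**Figure D4:**
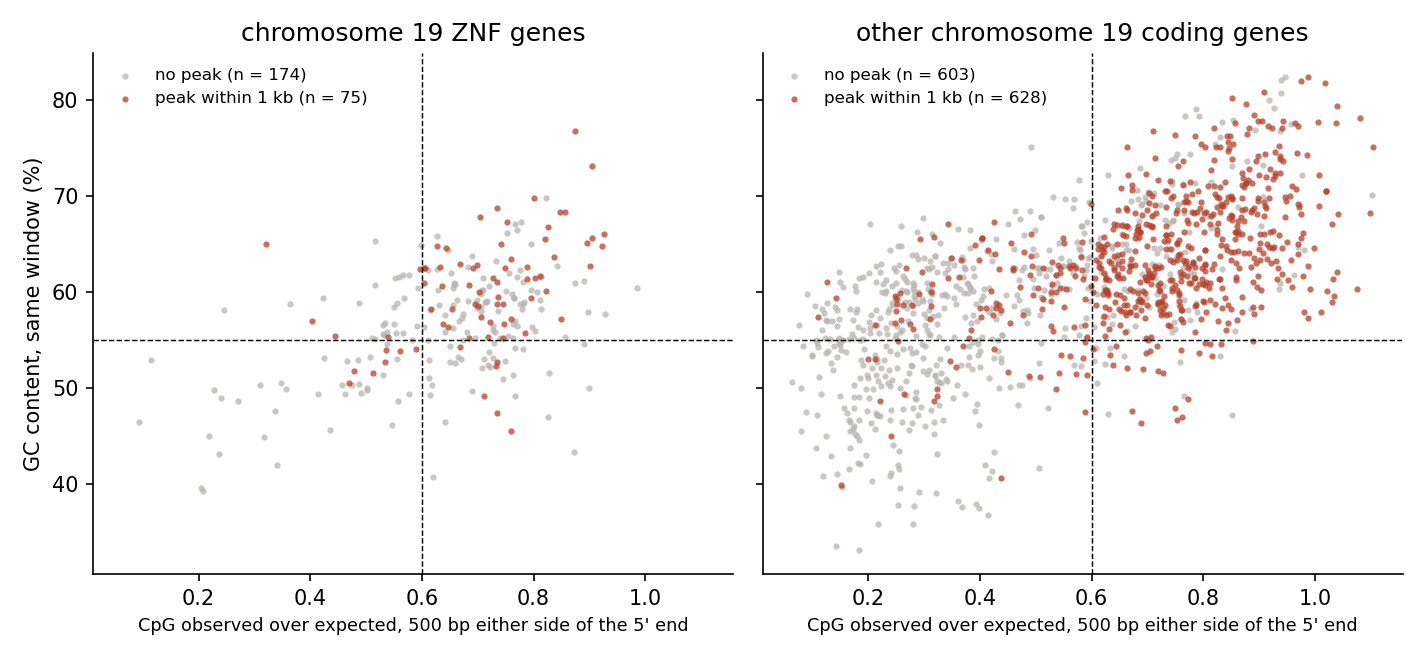
CpG observed over expected (horizontal) and GC content in percent (vertical) within 500 bp of the 5' end of each gene, for ZNF genes (left) and other coding genes (right) of chromosome 19, with a 5' peak in red and without in grey; dashed lines mark 0.6 and 55%. In the upper right area 57 of 138 ZNF genes and 481 of 616 other genes carry a peak.

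A pair of CpG-rich genes with a 5' peak and a pair without, picked with their peaks known, are shown as examples. The 150 bases upstream are written as above, with each CG in capitals: ZNF274 (chr19:58694246-58694395, plus strand) and ZNF473 (chr19:50528821-50528970, plus strand), which had peaks, and ZNF264 (chr19:57702718-57702867, plus strand) and ZNF420 (chr19:37498609-37498758, plus strand), which had none.
ZNF274, with a peak: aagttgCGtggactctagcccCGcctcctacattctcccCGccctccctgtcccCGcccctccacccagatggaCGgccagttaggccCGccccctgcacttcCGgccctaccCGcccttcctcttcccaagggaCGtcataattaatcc
ZNF473, with a peak: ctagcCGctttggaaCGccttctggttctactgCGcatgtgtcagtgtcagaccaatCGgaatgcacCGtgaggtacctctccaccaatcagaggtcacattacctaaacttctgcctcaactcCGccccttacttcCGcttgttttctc
ZNF264, no 5' peak: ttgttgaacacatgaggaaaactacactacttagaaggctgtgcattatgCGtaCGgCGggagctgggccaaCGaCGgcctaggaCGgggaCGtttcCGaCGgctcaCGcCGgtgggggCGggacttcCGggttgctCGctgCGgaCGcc
ZNF420, no 5' peak: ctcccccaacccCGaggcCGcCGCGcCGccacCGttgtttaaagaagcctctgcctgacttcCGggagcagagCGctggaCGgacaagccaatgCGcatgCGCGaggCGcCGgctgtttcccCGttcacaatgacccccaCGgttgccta
The stretches of ZNF274 and ZNF473 lie beside their peaks and not inside them, so the letters show the promoter and not the peak. A CpG-dense stretch upstream was thus found with no peak at ZNF264 and ZNF420, with 16 CG dinucleotides each. ZNF274 had 9 and ZNF473 had 7, an order opposite to the medians of the whole set. The whole set had a median CpG observed over expected of 0.727 in ZNF genes with a 5' peak and 0.660 in those without, and a median GC content of 60.6% and 56.4%.

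The SMARCA4 sites had been collected for comparison with DNA G-quadruplexes, so motifs able to form them (G4 motifs, here 4 runs of 3 or more G separated by 1 to 7 bases, both strands searched) were counted. Among the 94 distinct 5' peaks of the ZNF genes 30 held a G4 motif (31.9%, 23.4 to 41.9), against 42.5% (41.5 to 43.5) of the 9335 5' peaks of all coding genes. This value depended on the definition: with loops of up to 12 bases it was 51.1% (41.1 to 60.9), against 58.7% for all coding genes. Around the peak midpoints, in 200 bp that reach beyond the 20.2% of ZNF peaks and 14.6% of all 5' peaks narrower than this, it was 18.1% (11.6 to 27.1) against 24.6%. The windows of 1 kb either side of the 5' end differed in the same direction, with a G4 motif in 144 of 249 ZNF genes (57.8%), 78.3% of the other chromosome 19 genes and 65.3% of all coding genes. ZNF genes with a 5' peak had a motif in the window in 68.0% (56.8 to 77.5) and those without in 53.4% (46.0 to 60.7). The member with the most motifs inside its 5' peaks was ZNF524, with 6. ZNF160, ZNF787 and ZNF865 had 3 each. Examples, with the runs of G in capitals and the strand as given, are from ZNF524 (chr19:56111788-56111819, plus strand, the strand of the gene) and ZNF160 (chr19:53606853-53606874, plus strand, opposite to the gene).
ZNF524: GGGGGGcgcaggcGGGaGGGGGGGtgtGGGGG
ZNF160: GGGacccGGGGGcGGGccGGGG

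Short motifs were counted in the central 200 bp of the 94 peaks on both strands, beside the 9335 5' peaks of all coding genes. The SP/KLF box GGGCGG, which can overlap a G4 motif, was in 47.9% (38.1 to 57.9) against 57.1%. The CCAAT box was in 24.5% (16.9 to 34.0) against 18.1%. The ETS site CCGGAAGT was in 9 peaks (9.57%, 5.12 to 17.2) against 4.64%, and the cyclic AMP response element TGACGTCA in 6 (6.38%, 2.96 to 13.2) against 1.87%. A GATA site (GATA after A or T and before A or G) was in 14.9% against 12.1%. The AP-1 site, TGACTCA or its reverse complement TGAGTCA, was in 3.19% against 3.10%, and the ZBTB33 core CTCGCGAG in 2.13% against 1.18%. Near those of all coding genes were also the shares with the NRF1 core GCATGCGC (3.19% against 2.95%), the YY1 core CCATNTT (9.57% against 9.51%) and CCCTC, a short piece of the CTCF site that most windows contain (64.9% against 66.7%). The box TATAAA was in 1 peak (1.06% against 2.72%). In the windows from 500 bp upstream to 100 bp downstream of the 5' ends, the ETS site was present at 18.9% (14.5 to 24.2) of the ZNF genes against 5.83% of all coding genes, and almost as often without a 5' peak (17.2%) as with 1 (22.7%). The YY1 core showed the opposite order, in 18.7% (11.5 to 28.9) of the windows of ZNF genes with a 5' peak and 34.5% (27.8 to 41.8) of those without, beside 30.7% for all coding genes. The cyclic AMP response element was in 10.7% (5.50 to 19.7) of the windows with a 5' peak and 2.87% (1.23 to 6.55) of those without, beside 2.69% for all. Few genes carry this contrast, and they are not independent. The 5' peaks that held the element included those of ZNF266, ZNF426, ZNF561 and ZNF562, which lie close together in the cluster below 15 Mb. The others were at ZNF576, ZNF180, ZNF473 and ZNF548. CCCTC was in 72 of 75 windows with a 5' peak (96.0%) and in 77.6% (70.8 to 83.1) of those without. Its share was 87.6% for all coding genes and 92.2% for the other chromosome 19 genes. These counts describe letters and say nothing of which factors bind.

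Body peaks were found in 38 of the 249 ZNF genes (15.3%, 11.3 to 20.3), against 27.7% of all protein-coding genes and 32.9% of the other genes of chromosome 19. There were 56 distinct body peaks, 37 of them wholly intronic, 19 touching an exon and 4 touching coding sequence (in ZNF627, ZNF429, ZNF43 and ZNF254). In 23 genes (9.24%, 6.23 to 13.5) only body peaks were found, close to the 9.99% of the other chromosome 19 genes and the 11.2% of all coding genes. Many of these lay near further annotated starts of the same gene: when the 5' end of any coding transcript counted, 17 of the 23 genes gained a 5' peak, 6 (2.41% of all) kept a body peak alone, and the share of ZNF genes with a 5' peak rose to 37.3%. Of the 56 body peaks 30 lay within 1 kb of a coding transcript start (53.6%, 40.7 to 66.0), against 41.1% (37.7 to 44.6) of those of the other chromosome 19 genes. The other chromosome 19 genes then stood at 56.0%. The widest body peak of each cluster was 920 bp in ZNF627 (chr19:11707999-11708918), 330 bp in ZNF43 (chr19:22018604-22018933), 779 bp in ZNF565, 695 bp in ZNF574 and 907 bp in the read-through gene ZNF816-ZNF321P. The peak in ZNF565 is the 5' peak of ZNF146. The body peak of ZNF43 lay 16159 bp downstream of the outermost 5' end, within 1 kb of another coding start of the gene, and so did those of ZNF429 (291 bp) and ZNF254 (238 bp) in the same cluster. ZNF627 had the most body peaks, 6. In the central 200 bp of the body peaks the GATA site was present in 22 of 56 (39.3%, 27.6 to 52.4), against 26.7% (23.8 to 29.9) of the 793 body peaks of the other chromosome 19 genes, and GGGCGG in 21.4% (12.7 to 33.8) against 40.4%.

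The 3' exons, where the finger arrays are encoded, were almost without SMARCA4 peaks. A 3' exon peak was found in 2 of the 249 ZNF genes (0.803%, 0.221 to 2.88), against 3.96% of all protein-coding genes and 8.94% (7.47 to 10.7) of the other chromosome 19 genes. The difference from the latter was -8.13 points (-9.95 to -5.59). The ZNF genes of other chromosomes were closer, with 9 of 267 (3.37%, 1.78 to 6.28) and a difference of -2.57 points (-5.54 to 0.0471). Both genes lie above 50 Mb. The peak of ZNF320 (chr19:53364109-53364224) was 116 bp wide and touched no coding sequence. The peak of ZNF586 (chr19:58330756-58331008) was 253 bp wide and was at the same time the 5' peak of the neighbouring ZNF587B, so that away from other coding starts 1 of 249 genes was left (0.402%), against 6.99% of the other chromosome 19 genes. With 1 canonical or longest coding transcript per gene, 0 of the 249 genes had a 3' exon peak. In the 4 clusters below 50 Mb the count was 0, with upper Wilson limits of 7.41% below 15 Mb, 9.41% at 15 to 25 Mb, 10.7% at 32 to 40 Mb and 11% at 40 to 50 Mb. The 9 letters TGGAGAGAA, which occur in the coding sequence of the linker between fingers, were present in the canonical 3' exon of 182 of 248 ZNF genes (73.4%) and 3.54% of the other genes. They were found in 1 of the 56 body peaks, in ZNF611, and in the 844 bp 5' peak of ZNF274.

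**Figure D5:**
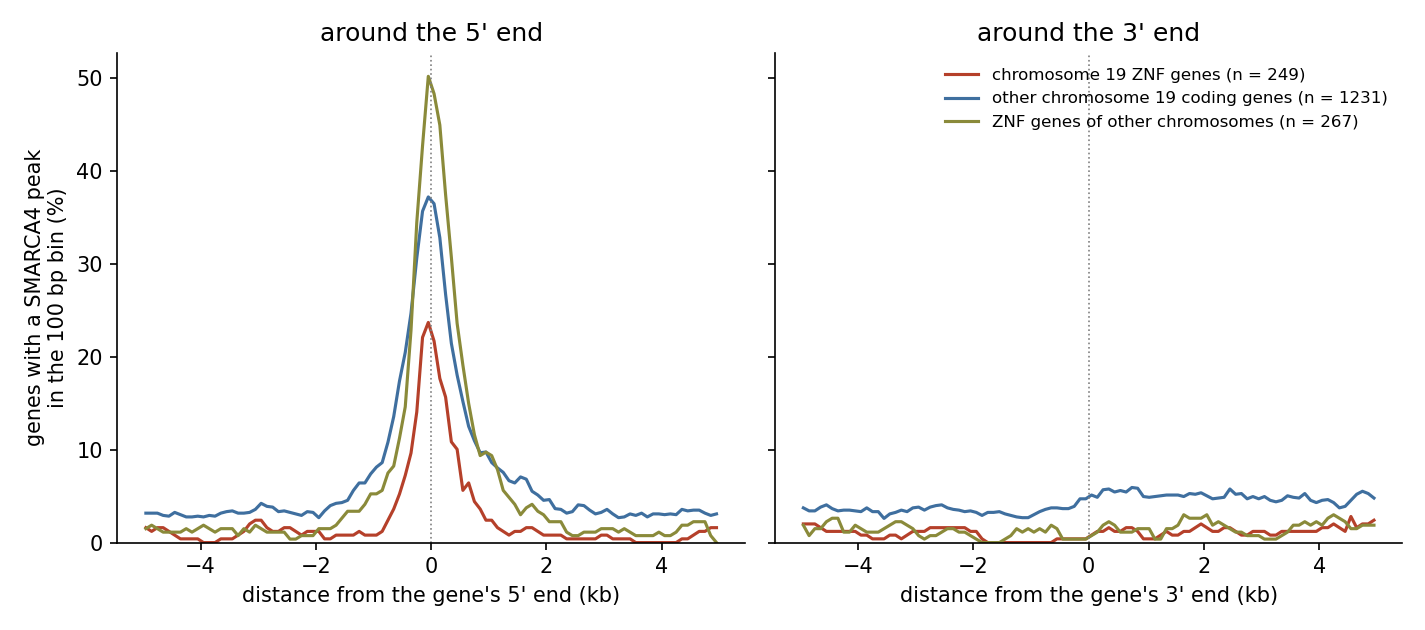
Share of genes, in percent, with a SMARCA4 peak in each 100 bp bin within 5 kb of the 5' end (left) and of the 3' end (right), for ZNF genes of chromosome 19, other coding genes of chromosome 19 and ZNF genes of other chromosomes. The curves peak just upstream of the 5' end at 23.7%, 37.2% and 50.2%, and around the 3' ends the curve of the ZNF genes stays at or below 2.81%.

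Because tandem copies share sequence, the placing of reads was examined. Of 75-base stretches cut from the windows around the 5' ends, a median of 98.7% per gene mapped to their own place, both for ZNF genes and for the other chromosome 19 genes, and the median was 98.7% for ZNF genes without a 5' peak and 97.4% for those with 1. Restricted to windows where at least 95% mapped back, 56 of 182 ZNF genes (30.8%, 24.5 to 37.8) and 456 of 803 other genes (56.8%, 53.3 to 60.2) had a 5' peak. For 3' exons the median was 97.6% for ZNF genes and 100% for the other chromosome 19 genes. At 15 to 25 Mb the ZNF median was 95.7%, with a lowest value of 44.7%. Only the last exon of 1 canonical or longest coding transcript per gene was mapped, whereas a 3' exon peak counted in the last exon of any coding transcript. Among genes whose mapped exon had at least 95% mapping back, 2 of 180 ZNF genes and 101 of 1001 others had a 3' exon peak. With the mapped exons alone, 0 of the 249 ZNF genes had such a peak, so mapping was not measured in the exons that hold the 2 peaks. A second coding start nearby also went with the share. It was 38.9% for the 54 ZNF genes with another gene's coding start within 1 kb and 27.7% (21.9 to 34.4) for the 195 without, against 68.7% and 44.7% for the other chromosome 19 genes. In genes without such a neighbour the difference was -17.0 points (-23.7 to -9.63).

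The protein types were compared by patterns in the translated coding sequences, chosen after the data had been seen. A KRAB-like pattern was found in 184 ZNF genes, of which 50 (27.2%, 21.3 to 34.0) had a 5' peak, and was not found in 64, of which 25 (39.1%, 28.1 to 51.3) had 1. The read-through gene ZNF625-ZNF20 had no coding transcript to search. The pattern misses some known KRAB proteins, ZNF43 and ZNF568 among them. The difference was -11.9 points (-25.5 to 1.07), and the clusters did not share its direction. Below 15 Mb 61.8% of the KRAB-like genes had a 5' peak against 3 of the 13 others, whereas above 50 Mb 22.2% had 1 against 14 of 28. The counts were 6 of 33 against 0 of 4 at 15 to 25 Mb and 4 of 23 against 3 of 9 at 32 to 40 Mb. At 40 to 50 Mb they were 3 of 22 against 5 of 9. The median number of fingers was 12 with a 5' peak and 13 without. Of the 14 genes with at most 5 fingers, 8 had a 5' peak (57.1%, 32.6 to 78.6). The counts were 20 of 73 (27.4%) with 6 to 10 fingers, 33 of 106 (31.1%) with 11 to 15 and 14 of 55 (25.5%) with over 15. Beside these stood 30.1% of all the ZNF genes and 42.3% of all coding genes.

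Among genes with known roles, ZNF274, which is recruited to the 3' ends of ZNF genes with SETDB1, had the 844 bp 5' peak given above. ZNF473, a factor of histone pre-mRNA 3' end processing, had peaks of 541 and 377 bp at its 5' end, near the start of VRK3. ZNF296, known from pluripotent and blood cells, had peaks of 494 and 388 bp, each with a G4 motif. ZNF146, ZNF93 and ZNF675, an inhibitor of TRAF6 signalling, completed the 6 genes of this list of 16 with a 5' peak, against 30.1% of all the ZNF genes and 42.3% of all coding genes. The other 10 had none. They were ZNF91, ZNF208 and ZNF43 of the pericentromeric cluster, ZNF568 and the p53 regulator ZNF420 at 32 to 40 Mb, and ZNF224, a transcriptional repressor, at 40 to 50 Mb. Above 50 Mb they were the BRCA1 partner ZNF350, the imprinted gene ZNF331 and ZNF264. The last was ZNF536, a regulator of neuronal differentiation. ZNF331 had a body peak of 179 bp close outside the window.

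A list of 17 genes of TRIM28-dependent silencing, heterochromatin and DNA methylation was also read. In it 12 had a 5' peak (70.6%, 46.9 to 86.7), against 42.3% of all coding genes and 62.0% of the CpG-rich ones. TRIM28, which lies on chromosome 19 beyond the last ZNF cluster genes, had a widest peak of 1037 bp (chr19:59055417-59056453), and SETDB1 1 of 308 bp. Of the HP1 genes, CBX3 had 1779 bp, CBX5 633 bp and CBX1 512 bp. The helicase genes of the NuRD complex, CHD4 and CHD3, had 1224 and 232 bp, and the deacetylase gene HDAC1 722 bp. DNMT1, the maintenance DNA methyltransferase, had 638 bp, PPHLN1 and TASOR of the HUSH complex 725 and 237 bp, and the remodeller gene SMARCAD1 230 bp. ATF7IP, HDAC2, MORC2, MPHOSPH8 and UHRF1 had no 5' peak.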

How the data were processed

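Per the labels and the study's methods, K562 chromatin was sequenced in 3 SMARCA4 and 3 input libraries. After trimming (cutadapt 1.16) and BWA 0.7.15 alignment to hg19 the authors removed duplicates with Picard 2.14.0 and SAMtools 1.6, called peaks per replicate with MACS2 2.1.1 (q-value threshold 0.05) and kept regions in at least 2 of 3 replicates with bedtools 2.26.0. The deposited values used here are the start and end positions of this list in bp. It gives no other score and the reads were not used, so depth per region was not measured. The intervals reflect only the number of genes counted, and neighbouring genes are not independent.

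Genes came from GENCODE 44 lifted to hg19, sequence from GRCh37, and an overlap of 1 bp counted. Wilson and Newcombe intervals (95%) and counts were computed with Python 3.11.15, numpy 2.4.6, scipy 1.17.1 and pysam, and reads of 75 bases cut every 25 bases were mapped with minimap2 (mapping quality of at least 10). The overlap, motif and interval code was tested on simulated data. Named genes were the 3 with the widest 5' peak per cluster, those with 3' exon peaks, the 3 (with ties) with most G4 motifs, the widest body peak per cluster, the longest runs and a list by role. Alternatives were other peak sets, windows, transcript starts, exons, gene lists and motif definitions. The members and lists were chosen with earlier results of these data known.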

Additional observations from a re-analysis of the deposited data

How the results depend on the processing

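Most alternatives changed values within their counting intervals: 72 of 83, including all the cluster shares, and none reversed a direction. Those of the overall 5' difference from the other chromosome 19 genes and of its CpG-rich version were all among the 72. The other differences had no alternatives. The cluster shares stayed within intervals that are wide. Below 15 Mb the share was 37.5% with peaks of at least 200 bp, against 50%. At 15 to 25 Mb it was 24.3% with any coding start, against 16.2%. The difference in 5' peaks ranged from -23.3 to -15.4 points over 11 alternatives, the lowest with genes near another coding start left out of the ZNF group only (-17.0 with both groups so restricted), and among CpG-rich genes from -44.8 to -34.0. With the 5' end of any coding transcript the ZNF share moved from 30.1% to 37.3%, and that of the other chromosome 19 genes from 51.0% to 56.0%. The latter was 47.4% with peaks of at least 200 bp, 46.9% with a window of 500 bp either side and 54.2% with 2 kb. For 3' exons, the last exon of 1 transcript per gene gave 0 of the ZNF genes and 7.07% of the others, and peak midpoints gave 5.28% of the others. Body-only peaks fell to 2.41% with any coding start, since those peaks were then counted as 5' peaks. The G4 share was 51.1% with loops of 1 to 12 bases and 18.1% in the central 200 bp. The median width of the ZNF 5' peaks was 411 and 412 bp in its 2 alternatives. Widths of the other groups were not recomputed for these. No paired analysis was possible because the only file used was the pooled list, which carries no value per replicate, so no replicate could be left out either. Added alternatives were chosen after seeing the data, and other causes were not tested.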

Other observations

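Of the 249 symbols, 3 are read-through genes (ZNF559-ZNF177, ZNF625-ZNF20 and ZNF816-ZNF321P). Of the 16 zinc finger genes of chromosome 19 with symbols of related families, 3 had a 5' peak (18.8%, 95% Wilson interval 6.59 to 43.0), against 42.3% of all coding genes.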
